A study of Mus musculus with 12 samples.

Results

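The genes described here are 20 cytosolic aminoacyl-tRNA synthetases and 14 genes of the amino acid stress response, 34 genes in all. They were chosen by name from what is known of the pathway, with earlier results of these data known, so no test of the set was made. Each symbol was found once among the 23996 gene rows of each of 2 deposited tables. The 14 comprise 5 regulators (Atf4, Ddit3, Trib3, Chac1 and Sesn2), 4 enzymes of asparagine and serine synthesis (Asns, Phgdh, Psat1 and Psph), 2 mitochondrial one-carbon enzymes (Shmt2 and Mthfd2) and 3 transporter subunits (Slc7a11, Slc3a2 and Slc7a5).

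The tables come from RNA sequencing of monocytes of C57Bl/6 mice. Ly6Chigh monocytes, the inflammatory subset, and Ly6Clow monocytes, the patrolling subset, were taken after placebo or muramyl dipeptide (MDP), a piece of bacterial cell wall that the receptor NOD2 senses, with 3 samples in each of the 4 groups. MDP titles carry 16 h, whereas placebo titles read Naive with no time, so a matched time is not shown, and age and sort gate are not given in the labels. Each table covers 1 subset and gives FPKM, a level per transcript length and per library size, as 1 value for condition q1 and 1 for condition q2. No source used here says whether q1 or q2 is MDP, or that both tables number them alike, so every difference below is q2 over q1 and every log2 value is log2 of that ratio. No value per sample is given, so no replicate error can be printed, the depth is unknown, and the error enters only through the authors' q-value, their adjusted p-value from Cuffdiff. A gene is called where that q-value is under 0.05 and is otherwise described by its values alone. No label says that samples are separate animals, so these q-values may measure technical spread. In RNA from bulk cells, fewer cells of a type and less RNA per cell cannot be told apart.

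Aminoacyl-tRNA synthetases join each amino acid to its tRNA, and the cytosolic set serves translation outside mitochondria. When an amino acid runs short, uncharged tRNA activates the kinase GCN2, which phosphorylates eIF2 alpha, slows translation in general and raises translation of the transcription factor ATF4. ATF4 binds C/EBP-ATF response elements and raises transcription of synthetases, of enzymes that make asparagine and serine, and of amino acid transporters. ATF4 is controlled largely at translation, so its transcript level is not a measure of its protein.

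Enzymes of serine metabolism and an importer of neutral amino acids, Phgdh, Psat1, Shmt2 and Slc7a5, were called higher in q2 in both monocyte subsets, by 1.67-fold to 5.07-fold. In Ly6Chigh monocytes the low-level genes Slc7a11, Trib3 and Asns were also called higher, by 3.65-fold to 4.14-fold. Of the synthetases, Aars, Gars and Hars were called higher in q2 in both subsets, by 1.28-fold to 1.75-fold. Of the 33 genes tested in Ly6Chigh monocytes, 11 were called higher and 0 lower by Cuffdiff, and 0 lower had an unadjusted p under 0.05. Among all 11626 genes tested there, 14.6% were called, 7.07% higher and 7.54% lower. Of the 32 genes tested in Ly6Clow monocytes, 13 were called higher and 1 lower, against 26.3% of 12042 genes called, 14.2% higher and 12.2% lower. The median log2 ratio was 0.45 over the Ly6Chigh genes and 0.24 over the Ly6Clow genes, beside 0.00 over all tested genes in either table. Chac1 was not tested in either table, nor was Slc7a11 in Ly6Clow monocytes. In at least 1 condition, 31 of the 34 genes reached 1 FPKM in Ly6Chigh monocytes and 30 in Ly6Clow monocytes.

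In Ly6Chigh monocytes, 4 of the 20 synthetases were called higher in q2. Aars, the alanine enzyme, stood at 13.99 FPKM in q1 and 24.5 in q2, 1.75-fold higher (q-value 0.00226 in the authors' deposited table). Cars, the cysteine enzyme, went from 9.89 in q1 to 16.4 in q2, 1.66-fold (q-value 0.00609 in the authors' deposited table). These were the largest ratios among the synthetases of that subset. Gars, the glycine enzyme, had 45.5 and 70.2 FPKM, 1.54-fold (q-value 0.0173 in the authors' deposited table). Hars, the histidine enzyme, had 23.0 and 34.5 FPKM (q-value 0.0376 in the authors' deposited table). Both were thus higher in q2, although Gars was expressed at about the level of the most abundant synthetases. A further 6 had an unadjusted p under 0.05 but were not called: Eprs, Farsb, Iars, Rars, Tars and Yars. Their log2 ratios lay between 0.38 and 0.55. The median log2 ratio of the 20 was 0.38, 18 were above 0, and 0 were called lower, with 0 lower at an unadjusted p under 0.05.

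In Ly6Clow monocytes, 7 of the 20 were called higher and the differences were smaller, with a median log2 ratio of 0.22 and a highest of 0.43. Wars, the tryptophan enzyme, stood at 30.3 FPKM in q1 and 40.7 in q2, 1.35-fold (q-value 0.00114 in the authors' deposited table). Rars, the arginine enzyme, had 21.1 and 27.9 FPKM, 1.32-fold (q-value 0.00271 in the authors' deposited table). Aars had 17.0 and 22.3 FPKM, 1.31-fold (q-value 0.00271 in the authors' deposited table). None of these 3 reached 1.5-fold. Iars, the isoleucine enzyme, went from 11.3 to 14.8 FPKM (q-value 0.0033 in the authors' deposited table). Gars went from 45.0 to 57.6 FPKM (q-value 0.00651 in the authors' deposited table). Hars went from 22.5 to 28.9 FPKM (q-value 0.0101 in the authors' deposited table). The other call was Farsb, the beta subunit of the phenylalanine enzyme, whose partner Farsa was not called in either subset. Farsb stood at 13.4 and 17.0 FPKM, 1.26-fold (q-value 0.0291 in the authors' deposited table), and Farsa at 30.5 and 34.4. Again 18 of 20 had a log2 ratio above 0 and 0 were called lower, with 1, Vars, lower at an unadjusted p under 0.05.

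The 2 synthetases with less FPKM in q2 were the same in both subsets, and neither was called. Vars, the valine enzyme, had 37.9 and 33.6 FPKM in Ly6Chigh monocytes and 48.9 and 41.7 in Ly6Clow monocytes (q-value 0.106 in the authors' deposited table of the latter). Qars, the glutamine enzyme and among the 3 most abundant in every condition, had 66.9 and 65.9 FPKM in Ly6Chigh monocytes and 47.1 and 46.7 in Ly6Clow monocytes. The log2 ratio of Qars was thus -0.02 in the former and -0.01 in the latter. Summed over the 20 enzymes, FPKM was 546 in q1 and 692 in q2 for Ly6Chigh monocytes, 26.6% more, and 510 and 584 for Ly6Clow monocytes, 14.5% more.

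**Figure D1:**
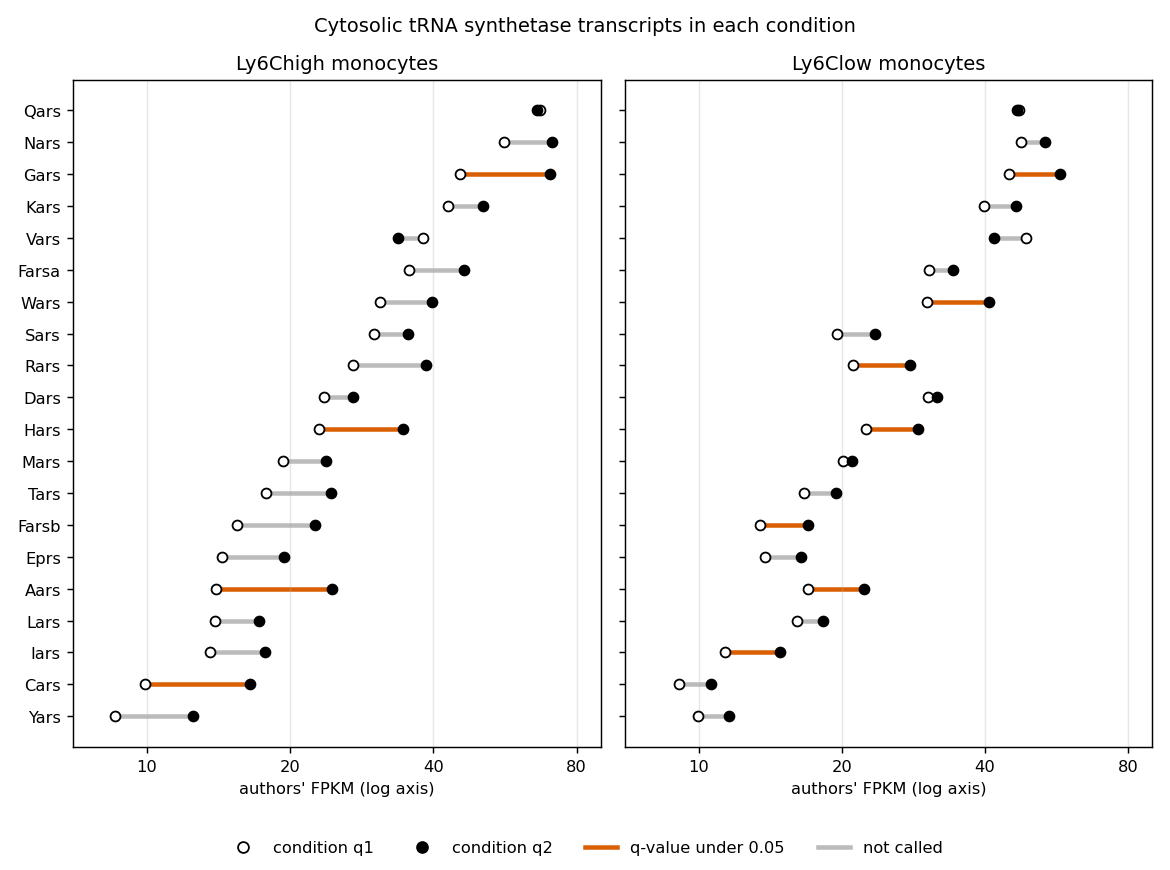
Authors' FPKM (log axis) of the 20 cytosolic synthetases in condition q1 (open points) and q2 (filled points), in Ly6Chigh monocytes on the left and Ly6Clow monocytes on the right, with 1 value per condition and no error bars; orange lines join genes with a q-value under 0.05. In each subset 18 of 20 filled points lie to the right of the open point, 4 of the lines on the left and 7 of those on the right are orange, and Vars lies the other way in both.

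Several synthetases sit in a large multisynthetase complex, held by scaffold proteins. The 8 enzymes of it among these genes (Eprs, Iars, Lars, Mars, Qars, Rars, Kars and Dars, a grouping made after the values were seen) had a median log2 ratio of 0.30 in Ly6Chigh monocytes and 0.20 in Ly6Clow monocytes. In Ly6Chigh monocytes 0 of the 8 were called by Cuffdiff, with 3 at an unadjusted p under 0.05, and in Ly6Clow monocytes 2, Iars and Rars, were called higher. The 12 enzymes outside the complex had medians of 0.50 and 0.25, with 4 and 5 called higher. The difference between the groups was not tested. Of the 3 scaffold transcripts, Eef1e1 was called higher in Ly6Clow monocytes, at 11.8 and 17.3 FPKM (q-value 0.00211 in the authors' deposited table), and 0 were called in Ly6Chigh monocytes by Cuffdiff, with 1 higher at an unadjusted p under 0.05.

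Most mitochondrial synthetases are separate gene products that charge tRNAs inside the organelle. The list used here holds no separate gene for the glycine, lysine or glutamine enzyme. Of 17 tested in each subset, 0 were called higher and 1 lower in Ly6Chigh monocytes, with 3 higher at an unadjusted p under 0.05 in Cuffdiff, and 1 was called higher and 0 lower in Ly6Clow monocytes, with 0 lower at that p. The call lower was Lars2, the mitochondrial leucine enzyme, at 112 and 53.6 FPKM in Ly6Chigh monocytes (q-value 0.000859 in the authors' deposited table) and 67.1 and 65.8 in Ly6Clow monocytes. The call higher was Nars2, the mitochondrial asparagine enzyme which is named here because its value was seen, at 0.412 and 0.876 FPKM in Ly6Clow monocytes, below 1 FPKM in both conditions.

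Wars differs from the other synthetases in that interferon gamma induces it. In Ly6Chigh monocytes it had 30.9 and 39.7 FPKM and was not called (q-value 0.224 in the authors' deposited table). Beside it, 13 of 17 tested interferon-induced genes were called lower in q2 of that subset and 1 higher, so Wars did not stand with most of that list. Ifit3, an interferon-induced antiviral gene, had 54.9 and 3.82 FPKM in Ly6Chigh monocytes and 10.6 and 4.52 in Ly6Clow monocytes, and was called lower in both. Irf1, a transcription factor downstream of interferon gamma, had 123 and 77.0 FPKM in Ly6Chigh monocytes and 141 and 108 in Ly6Clow monocytes. It was called lower in both. Gbp2, a guanylate-binding protein, was called lower in Ly6Chigh monocytes, at 36.4 and 22.9, and not called in the other subset, at 24.5 and 26.0. Gbp4 of the same family was called higher in both subsets, at 1.82 and 3.40, and 2.57 and 3.89. Cxcl10, a chemokine, and Ifit2 were called lower in Ly6Chigh monocytes, at 25.8 and 3.02, and 20.7 and 2.62. Most of this list was thus called lower in Ly6Chigh monocytes. Ifit2 was also called lower in Ly6Clow monocytes, at 5.10 and 3.65. In Ly6Clow monocytes, where Wars was called higher, 6 of 16 interferon genes were called lower and 3 higher. The 3 were Gbp4 and, named after their values were seen, Gbp3 and Gbp5 of the same family. Of these, Gbp3 was called lower in Ly6Chigh monocytes and Gbp5 was not called there.

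Promoter sequences of 26 of the 34 genes were matched in RefSeq (GRCm38.p6), as windows from 250 bases before to 50 after the transcription start. The element TGATGNAA (CARE, for C/EBP-ATF response element) was searched on both strands, where its other strand reads TTNCATCA. It lay in 9 of the 26 windows, 34.6%, beside 1304 of 32851 windows of all genes, 3.97%. The 9 were 5 of 13 synthetases (Aars, Gars, Iars, Tars and Yars) and 4 of 13 other genes (Trib3, Chac1, Asns and Slc7a11). Its strictest form, TGATGCAA, lay in 6 of 26 windows, 23.1%, beside 0.895% of all windows. The genes are known ATF4 targets in large part, so this share describes the choice of genes. Of the 9 genes with the element, 6 were called in at least 1 subset (Chac1 was untested), and of the 17 without it, 7 were, beside 30.6% of all 12266 genes tested in at least 1 subset. No entry was matched for Cars, Hars, Lars, Nars, Rars, Vars, Wars and Slc7a5.

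The stretches that hold the element are shown because these 5 synthetases share it with Asns, Trib3, Chac1 and Slc7a11. The windows of Phgdh, Psat1 and Shmt2, which were called in both subsets, did not hold it. Each is 30 bases in GRCm38.p6, written 5′ to 3′ on the strand of the gene, with the element in capitals.
Aars, chr8:111033840-111033869, plus strand: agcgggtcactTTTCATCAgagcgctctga
Gars, chr6:55037960-55037989, plus strand: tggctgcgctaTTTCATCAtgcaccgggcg
Iars, chr13:49682126-49682155, plus strand: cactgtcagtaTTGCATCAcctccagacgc
Tars, chr15:11399655-11399684, minus strand: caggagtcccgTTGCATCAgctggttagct
Yars, chr4:129189895-129189924, plus strand: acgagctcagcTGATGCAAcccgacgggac
Asns, chr6:7693214-7693243, minus strand: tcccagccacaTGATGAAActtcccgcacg
Trib3, chr2:152344028-152344057, minus strand: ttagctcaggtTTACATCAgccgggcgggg
Chac1, chr2:119351038-119351067, plus strand: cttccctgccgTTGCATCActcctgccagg
Slc7a11, chr3:50443661-50443690, minus strand: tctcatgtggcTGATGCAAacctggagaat
Slc7a11, chr3:50443642-50443671, minus strand: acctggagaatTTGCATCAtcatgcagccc
The stretches shown do not cover every match. The element in them began 30 bases before the start in Gars, 15 before in Tars, and 10, 8 and 4 bases after it in Aars, Iars and Yars. In Slc7a11 the 2 matches lay 66 and 47 bases before the start, so their stretches overlap. A match is a description of letters and not a measured site.

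The 250 bases before the start are given for Gars, a synthetase that was called in both subsets, again in GRCm38.p6 with the element in capitals.
Gars, chr6:55037751-55038000, plus strand: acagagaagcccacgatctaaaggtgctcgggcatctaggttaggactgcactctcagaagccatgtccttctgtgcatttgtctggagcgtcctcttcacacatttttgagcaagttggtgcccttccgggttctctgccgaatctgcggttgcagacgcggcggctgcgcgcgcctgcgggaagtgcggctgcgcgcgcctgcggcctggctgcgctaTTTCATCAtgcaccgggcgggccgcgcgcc
The E-box CACGTG, the same on both strands, was in 4 of the 26 windows (Aars, Farsb, Iars and Tars), 15.4%, beside 7.15% of all windows. In Gars the element is near the end of the stretch.

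Among the regulators, the transcript of Atf4 itself was not higher in q2 in either subset. It had 162 and 139.8 FPKM in Ly6Chigh monocytes, a log2 ratio of -0.21 that was not called (q-value 0.556 in the authors' deposited table). In Ly6Clow monocytes it had 194 and 150.2 FPKM and was called lower, with a log2 ratio of -0.37 (q-value 0.00413 in the authors' deposited table). Atf4 was the most abundant of the 34 genes in all 4 conditions and the sole call lower among them.

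Ddit3, which encodes the stress factor CHOP, had 11.7 and 8.28 FPKM in Ly6Chigh monocytes (q-value 0.744 in the authors' deposited table). It had 23.3 and 14.004 in Ly6Clow monocytes (q-value 0.0548 in the authors' deposited table), so it was not called in either. Trib3, a pseudokinase induced by ATF4 and CHOP, was called higher in Ly6Chigh monocytes (q-value 0.0421 in the authors' deposited table). Its levels there were 0.211 and 0.831 FPKM, below 1 in both conditions, and in Ly6Clow monocytes 0.69 and 0.792. Sesn2, a leucine sensor upstream of mTORC1, had 5.18 and 7.09 FPKM in Ly6Chigh monocytes, where it was not called (q-value 0.234 in the authors' deposited table). In Ly6Clow monocytes it had 3.69 and 6.71 FPKM, 1.82-fold higher (q-value 0.000418 in the authors' deposited table). Trib3 was thus called in Ly6Chigh monocytes and Sesn2 in Ly6Clow monocytes, and neither difference between the subsets was tested. Chac1, a glutathione-degrading enzyme, was below 0.05 FPKM in all 4 conditions.

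**Figure D2:**
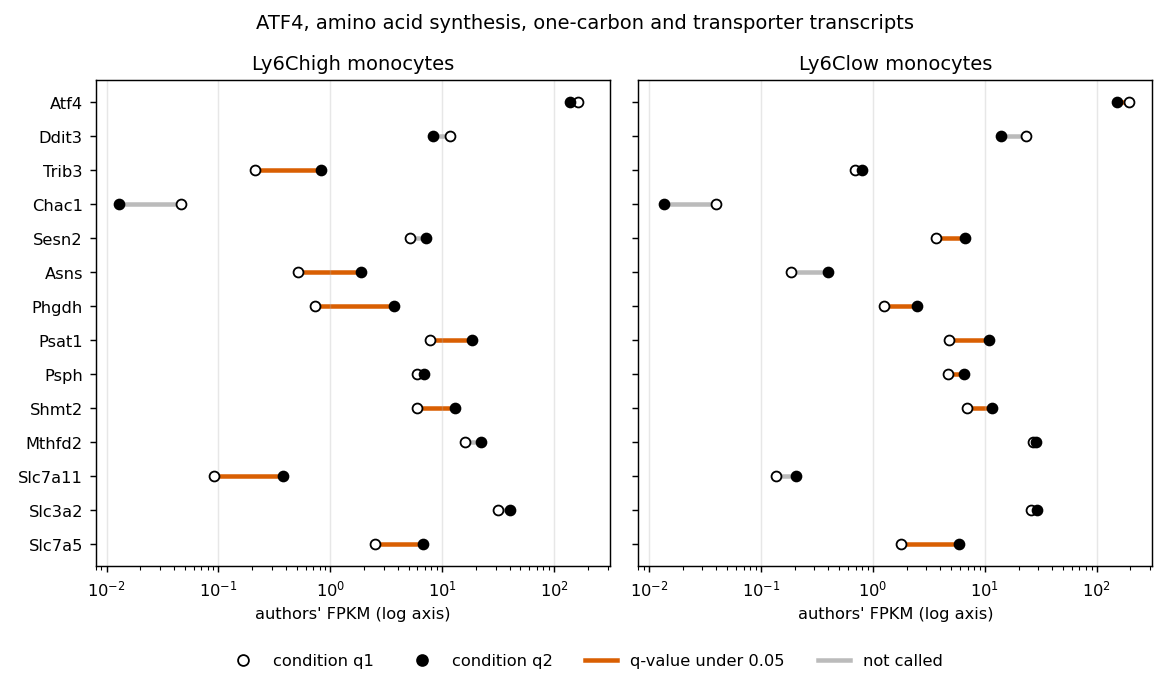
Authors' FPKM (log axis) of the 14 regulators, biosynthetic enzymes and transporters in condition q1 (open points) and q2 (filled points) of each monocyte subset, with 1 value per condition and no error bars; orange lines join genes with a q-value under 0.05. Atf4, at 139.8 to 194 FPKM, lies farthest right with q2 left of q1, whereas Phgdh, Psat1, Shmt2 and Slc7a5 have orange lines with q2 to the right in both panels.

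Upstream of ATF4, 10 genes for eIF2 alpha, its kinases, its phosphatase and related regulators (Gcn1l1, Impact and Eif2b5) were tested. Of these, 1 was called higher and 1 lower in Ly6Chigh monocytes, and 1 and 3 in Ly6Clow monocytes. Ppp1r15a, the inducible phosphatase subunit GADD34 and itself a target of ATF4, was called lower in both, at 122.7 and 71.1 FPKM in Ly6Chigh monocytes and 129 and 60.3 in Ly6Clow monocytes. Eif2s1, which encodes eIF2 alpha, was called higher in both, at 18.7 and 28.1, and 18.4 and 23.02. Ppp1r15b, the constitutive phosphatase subunit, and Eif2ak2, the kinase PKR, were called lower in Ly6Clow monocytes, at 93.7 and 63.1, and 11.1 and 8.82. Eif2ak4, which encodes GCN2, had 4.73 and 6.22, and 8.32 and 8.85, and was not called.

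ER stress also raises ATF4 and Ddit3, through the kinase PERK. Of 12 tested ER stress genes, 5 were called higher and 2 lower in Ly6Chigh monocytes, and 4 higher and 3 lower in Ly6Clow monocytes, which is a mixed list in both. Xbp1, a transcription factor of the unfolded protein response, was called higher in both, at 188 and 310.07 FPKM, and 165 and 317. Among ER folding proteins, Sdf2l1 and Calr were called higher in Ly6Chigh monocytes, at 49.5 and 149, and 328 and 811. Sdf2l1 was also called higher in Ly6Clow monocytes, at 41.5 and 56.2, and Calr was not, at 452 and 506. Pdia4, a disulfide isomerase, was called higher in both subsets, at 33.8 and 99.8, and 27.5 and 45.3. Dnajb9, a cochaperone of BiP, was called lower in Ly6Clow monocytes, at 19.2 and 13.4. Hspa5, the ER chaperone BiP, had 235 and 323 in Ly6Chigh monocytes (q-value 0.107 in the authors' deposited table) and was called lower in Ly6Clow monocytes, at 267 and 205 (q-value 0.00821 in the authors' deposited table).

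Asparagine and serine synthesis was the role in which the largest share of genes was called, 3 of 4 in each subset, all higher in q2. Phgdh makes the first committed step from 3-phosphoglycerate to serine. It had 0.734 and 3.72 FPKM in Ly6Chigh monocytes, 5.07-fold higher (q-value 0.000859 in the authors' deposited table), and 1.26 and 2.47 in Ly6Clow monocytes, 1.97-fold higher (q-value 0.000788 in the authors' deposited table). Its level was thus low in q1 of both subsets, and the ratio was the largest among the 34 genes in Ly6Chigh monocytes.

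Psat1, the aminotransferase of the second step, was more abundant. It had 7.83 and 18.4 FPKM in Ly6Chigh monocytes, 2.36-fold higher (q-value 0.000859 in the authors' deposited table). In Ly6Clow monocytes it had 4.74 and 10.9, 2.30-fold higher (q-value 0.000418 in the authors' deposited table), so the ratio was alike in the subsets. Psph, the phosphatase that releases serine, had 5.99 and 6.82 in Ly6Chigh monocytes and was not called. It was called higher in Ly6Clow monocytes, at 4.64 and 6.46 (q-value 0.0296 in the authors' deposited table).

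Asns, which makes asparagine from aspartate and is a classic ATF4 target, had 0.512 and 1.87 FPKM in Ly6Chigh monocytes, 3.65-fold higher (q-value 0.00991 in the authors' deposited table). Its levels in Ly6Clow monocytes were 0.187 and 0.394 FPKM, below 1 in both conditions, and it was not called (q-value 0.0848 in the authors' deposited table). Summed over the 4 enzymes, FPKM was 15.1 and 30.9 in Ly6Chigh monocytes and 10.8 and 20.2 in Ly6Clow monocytes.

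Shmt2, which turns serine into glycine in mitochondria and feeds the one-carbon pool, had 5.90 and 12.99 FPKM in Ly6Chigh monocytes, 2.201-fold higher (q-value 0.000859 in the authors' deposited table). Ly6Clow monocytes had 6.99 and 11.7, 1.67-fold higher (q-value 0.000418 in the authors' deposited table). Mthfd2, the next enzyme of the mitochondrial pathway, had 15.9 and 22.1 in Ly6Chigh monocytes (q-value 0.117 in the authors' deposited table) and 27.2 and 28.4 in Ly6Clow monocytes (q-value 0.746 in the authors' deposited table). Of the pair, Shmt2 was therefore called in both subsets and Mthfd2 in neither. Among other one-carbon and serine genes, 2 of 10 tested were called higher and 1 lower in Ly6Chigh monocytes, and 1 of 9 higher and 1 lower in Ly6Clow monocytes. Mthfd1, the cytosolic enzyme of the same reactions, was called higher in both, at 3.27 and 6.12, and 2.99 and 5.75 FPKM. Mthfd1l, a mitochondrial enzyme that releases formate, was called higher in Ly6Chigh monocytes, at 5.62 and 8.75. Tyms, which makes thymidylate, was called lower in Ly6Clow monocytes, at 8.82 and 6.40.

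Slc7a5 is the light chain LAT1, which with the heavy chain Slc3a2 imports leucine and other large neutral amino acids. It had 2.48 and 6.75 FPKM in Ly6Chigh monocytes, 2.72-fold higher (q-value 0.000859 in the authors' deposited table). The Ly6Clow values were 1.78 and 5.83, 3.28-fold higher (q-value 0.000418 in the authors' deposited table), the largest called ratio among the 34 genes in that subset. Slc3a2 had 31.5 and 40.01 FPKM in Ly6Chigh monocytes and 26.0 and 29.5 in Ly6Clow monocytes and was not called, so the heavy chain stayed several-fold above the light chain in every condition. Slc7a11, the cystine importer that also pairs with Slc3a2, had 0.0908 and 0.375 in Ly6Chigh monocytes and was called higher (q-value 0.00457 in the authors' deposited table). It had 0.135 and 0.207 in Ly6Clow monocytes, where it was not tested, and was below 1 FPKM throughout.

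**Figure D3:**
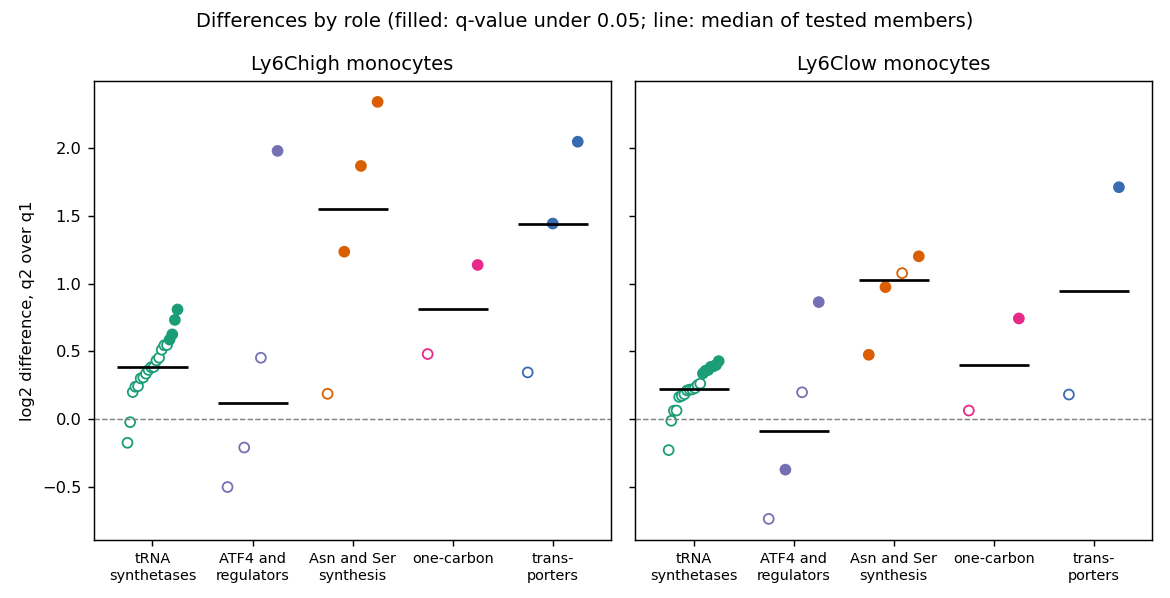
Log2 of FPKM in q2 over q1 for each tested gene, grouped by role, in Ly6Chigh and Ly6Clow monocytes; each point is a gene and lines mark the median of a role; filled points have a q-value under 0.05. The synthetases lie close together, with medians of 0.38 and 0.22, the asparagine and serine enzymes have medians of 1.55 and 1.03, and the regulators spread on both sides of 0.

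By role, the median log2 ratio was 0.38 for synthetases, 0.12 for regulators, 1.55 for asparagine and serine synthesis, 0.81 for the one-carbon pair and 1.44 for transporters in Ly6Chigh monocytes. In Ly6Clow monocytes it was 0.22, -0.09, 1.03, 0.40 and 0.95 in the same order. The 14 genes other than synthetases had a median of 1.14 in Ly6Chigh monocytes, over 13 tested, with 7 called higher and 0 lower. In Ly6Clow monocytes their median was 0.61 over 12 tested, with 6 called higher and 1 lower. The median of the other genes in Ly6Chigh monocytes was 0.48 over those with at least 1 FPKM in either condition, and 0.46 with a pseudocount of 1, beside 0.38 and 0.37 for synthetases. In Ly6Clow monocytes it was 0.61 over those with at least 1 FPKM and 0.32 with that pseudocount, beside 0.22 for synthetases each time. All 20 synthetases stood at 8.56 FPKM or more in every condition.

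The tables share no samples. Titles number the samples of both subsets alike, so both subsets may come from the same mice, which no label states. In all, 7 of the 32 genes tested in both were called in both, all higher in q2: Aars, Gars, Hars, Phgdh, Psat1, Shmt2 and Slc7a5. Among all 11401 genes tested in both, 9.78% were called in both and 4.77% were called higher in both. A further 3 were called in Ly6Chigh monocytes alone (Cars, Asns and Trib3, with Slc7a11 untested in the other table) and 7 in Ly6Clow monocytes alone, beside 4.78% and 16.5% of all genes. None of these subset differences was tested. All 32 genes tested in both tables had the same sign, beside 72.2% of the 10737 genes tested in both at 1 FPKM or more. Across the 32 genes Pearson's r of the log2 ratios was 0.73 and Spearman's rho 0.67, and across the 10737 genes they were 0.61 and 0.59. Genes are not independent replicates, and a like sign in q1 and q2 rests on a numbering that is not stated to be shared. The absolute log2 ratio was larger in Ly6Chigh monocytes for 23 of the 32 genes (71.9%) and for 16 of the 20 synthetases, beside 60.0% of the 10737 genes.

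**Figure D4:**
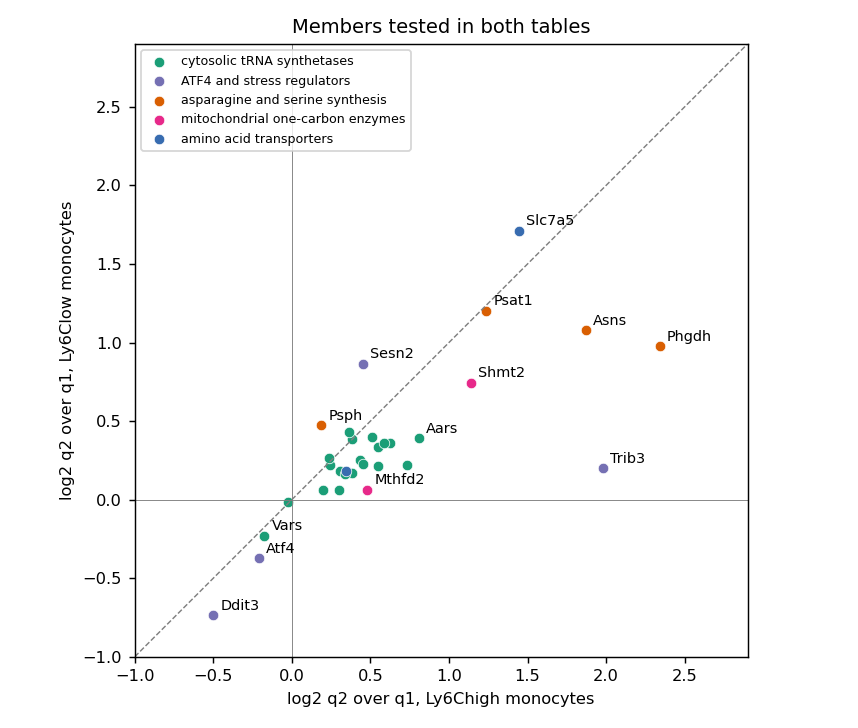
Log2 of FPKM in q2 over q1 in Ly6Chigh monocytes (x axis) and Ly6Clow monocytes (y axis) for the 32 genes tested in both tables, with synthetases and other genes marked apart; the dashed line marks equal ratios. All 32 points lie in the quadrants of equal sign, and 23 lie farther from 0 on the x axis, with Phgdh and Trib3 far to the right and Slc7a5 above the line.

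Levels of most of these genes lay within 1.5-fold between the subsets. Taking the geometric mean of q1 and q2, this held for 19 of 20 synthetases and 10 of the other 14 genes. The tables were set side by side without a test because they may have been normalized separately. No such share of all genes is given here, so these counts describe the chosen genes alone. Sars, the serine enzyme, was the exception among synthetases, at 1.52-fold less in Ly6Clow monocytes. Asns was 3.61-fold less in Ly6Clow monocytes, with means of 0.979 and 0.271 FPKM. Psat1 was 1.67-fold less there and Ddit3 1.83-fold more. Trib3 was 1.77-fold more there by this mean, but below 1 FPKM throughout. Its values were 0.211 in Ly6Chigh and 0.69 in Ly6Clow monocytes in q1. In q2 the order was reversed, at 0.831 and 0.792. For Dars, Farsa, Nars, Qars, Sars and Vars, the q1 and q2 values of the subsets did not overlap. The same held for Ddit3, Asns, Mthfd2 and Slc3a2, whereas the values of the remaining genes overlapped. Among synthetases Qars, Nars, Gars and Kars held ranks between 1 and 5 in every condition, and Cars and Yars held ranks 19 and 20 in all 4.

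Other known targets and partners of ATF4 were mixed. Of 17 tested, 4 were called higher and 1 lower in Ly6Chigh monocytes, and 1 higher and 3 lower in Ly6Clow monocytes. Aldh18a1, which makes the proline precursor, was called higher in both, at 4.01 and 15.3 FPKM, and 15.8 and 24.2. Atf3, a stress-induced repressor, was called lower in both, at 136 and 36.2, and 50.5 and 14.9. Ddit4, an inhibitor of mTORC1, was called higher in Ly6Chigh monocytes at 67.2 and 173. Cebpb, a C/EBP partner of ATF4, was called higher there at 123 and 303 and had 304 and 255 in Ly6Clow monocytes, where it was not called. Gdf15, a stress cytokine, was called lower in Ly6Clow monocytes at 1.20 and 0.343. Atf5, a related factor, had 3.96 and 10.8, and 3.78 and 4.599, and was not called. Named after their values were seen, Slc7a1, an importer of arginine and lysine, was called higher in Ly6Chigh monocytes at 3.15 and 6.67, and Pck2, the mitochondrial PEPCK, lower in Ly6Clow monocytes at 19.8 and 12.97. Of 10 tested genes of mTORC1 and leucine sensing, 0 were called in Ly6Chigh monocytes by Cuffdiff, with 1 lower at an unadjusted p under 0.05, and Flcn alone was called in Ly6Clow monocytes, lower, at 16.0 and 12.9.

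**Figure D5:**
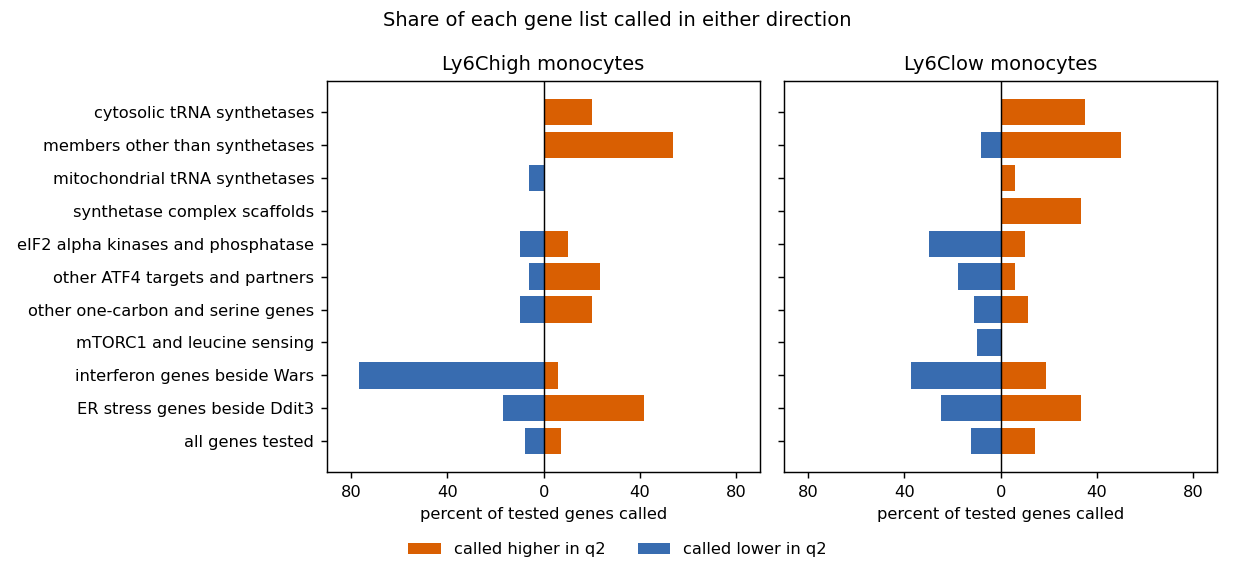
Percent of tested genes called higher (orange, right) or lower (blue, left) in q2 for the synthetases, the other 14 genes, 8 related gene lists and all tested genes, in each monocyte subset. The synthetases have calls to the right of 0 in both panels, the interferon list is mostly on the left in Ly6Chigh monocytes, and all tested genes stand at 7.07% and 7.54%, and at 14.2% and 12.2%.

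Markers of other cells also differed between the conditions, and their part in the results above was not tested. The neutrophil list summed to 153 FPKM in q1 and 558 in q2 of Ly6Chigh monocytes, with S100a8 and S100a9 called higher of 5 tested. Most of that sum was S100a8, at 62.9 and 422 FPKM, whereas Mmp8 had 59.0 and 41.9 and Cxcr2 0.75 and 0.656, neither called, and Camp, Ltf and Ngp were untested at under 0.25 FPKM, with Ngp listed at 0 in q1. In Ly6Clow monocytes the list summed to 17.3 and 38.9, with 3 of 4 called higher, Camp listed at 0 in q2 and Ngp at 0 in q1. B cell markers summed to 89.9 and 69.2 in Ly6Chigh monocytes, with 0 of 8 called by Cuffdiff and 1 lower at an unadjusted p under 0.05, and to 178 and 257 in Ly6Clow monocytes, with 5 of 8 called higher. Dendritic cell markers summed to 78.8 and 4.58 in Ly6Chigh monocytes, with 3 of 5 called lower. In Ly6Clow monocytes they summed to 148 and 210.4, mostly from Cd209a, at 129 and 194. There 2, Cd209a and Zbtb46, were called higher and 2, Flt3 and Clec9a, lower. Tissue macrophage markers summed to 121 and 103 in Ly6Chigh monocytes, with 3 of 4 tested called higher and 1 lower. The call lower was Emr1, at 106 and 50.5, whereas C1qa, C1qb and C1qc were called higher. In Ly6Clow monocytes the list summed to 234 and 91.0, with 5 of 6 called lower. NK cell markers summed to 8.79 and 2.87, with 2 of 5 called lower, and to 36.8 and 51.2, with 2 of 5 called higher. Plasma cell markers summed to 28.3 and 19.4 in Ly6Chigh monocytes, mostly from Irf4, at 21.9 and 12.7. Of these markers Sdc1 was called higher, at 0.703 and 4.31, and 2 of 4, Irf4 and Prdm1, were called lower. In Ly6Clow monocytes they summed to 20.8 and 32.6, with Sdc1, Irf4 and Mzb1 called higher and Prdm1 lower. Erythroid and platelet markers summed to 559 and 476, with the platelet genes Pf4 and Ppbp called lower of 5 tested, and to 871 and 1011, with 1 of 6 called higher. T cell markers summed to 5.23 and 3.35, with 0 of 6 called by Cuffdiff, all 6 lower in value in q2 and 1 at an unadjusted p under 0.05, and to 6.05 and 5.14, with Cd4 called lower. Markers of Ly6Chigh monocytes summed to 2571 and 1869.9 in their own table and to 105 and 99.7 in the other. Markers of Ly6Clow monocytes summed to 4650.2 and 3137 in their own table and to 1135 and 896 in the other, so the labelled subsets were told apart by them.

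Exons of 8 of the 34 genes overlap those of another gene in the tables (GENCODE M21): Aars, Farsb, Hars, Mars, Yars, Ddit3, Psph and Shmt2. Mars and Ddit3 overlap each other. No source used here says whether reads were counted by strand, so reads of these genes could be shared with the neighbour. In GENCODE M21, Aars and its neighbour Exosc6 lie on the same strand, so counting by strand would not separate their 1326 shared exon bases. In the positions that the authors deposited, however, Aars, Hars and Psph share no locus with another gene. Farsb, Mars, Yars, Ddit3 and Shmt2 do share a locus there. Whether the authors' gene models hold the overlaps of Aars, Hars and Psph is therefore not shown. Without the 8 genes, 2 synthetases rather than 4 were called higher in Ly6Chigh monocytes and 4 rather than 7 in Ly6Clow monocytes. The calls lost in Ly6Chigh monocytes were Aars and Hars.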

How the data were processed

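RNA of 12 monocyte samples went into Illumina TruSeq libraries (labels' protocols). The authors used Trimmomatic 0.33, TopHat2 2.0.14, Bowtie2 2.2.5, Cufflinks 2.21 and Cuffdiff 2.21 with build mm10, per the submitters' processing notes; no source used here gives settings. The deposited values are FPKM, 1 for each condition and no single samples, per the file headers. The authors also deposited a p-value for each gene with its q-value, both from Cuffdiff, per the file headers. Each table was tied to its monocyte subset by its own name. The plan compared MDP with placebo; because the conditions are named q1 and q2 only, q2 was compared with q1, and no direction was inferred from values or column order. Log2 ratios were computed from the deposited FPKM with no pseudocount. Calls (q-value under 0.05, status OK) matched the authors' flag in all 23996 rows of each table. The smallest deposited p-value is 5e-05. All 34 genes were named; of each related list, the 3 called genes with the largest log2 difference at 1 FPKM or more in each table, plus Irf1, Ifit3, Gbp2, Hspa5, Xbp1, Eif2ak4, Ppp1r15a, Cebpb and Atf5. The 34 genes, the lists and the motifs were chosen with earlier results of these data known. Of the list genes, 6 had no row of their symbol. Planned interferon motifs were not searched, and a few genes and a sequence that the naming rule would include are not reported here. Alternatives were a q-value of 0.01, a 1.5-fold minimum, pseudocounts of 0.1 and 1, an FPKM minimum of 1, adjustment recomputed over those genes, centring on the median gene, and each condition alone. Scripts were tested on simulated data. Python 3.11.15, pandas 2.3.3, numpy 2.4.6, scipy 1.17.1 and matplotlib 3.10.9 were used.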

Additional observations from a re-analysis of the deposited data

How the results depend on the processing

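Of 69 values recomputed under alternatives for 15 results, 57 kept their direction and side of the threshold or stayed close to the reported value. Some of these could not change. A count of 0 called lower stays 0 under a stricter threshold or with fewer genes. An FPKM minimum of 1 removes no synthetase. At a q-value of 0.01, synthetases called higher in Ly6Chigh monocytes were 2, against 4. With at least 1.5-fold required, synthetases called higher in Ly6Clow monocytes were 0, against 7, and other genes called lower were 0, against 1. Another alternative, chosen after seeing the data, left out the genes whose exons overlap another gene in GENCODE M21. Synthetases called higher were then 2 in Ly6Chigh and 4 in Ly6Clow monocytes. Other genes called higher fell to 6, against 7, in Ly6Chigh monocytes and to 4, against 6, in Ly6Clow monocytes. Both of these falls are counted among the 57. The median log2 ratio of the other genes was 1.34 and 0.86, against 1.14 and 0.61. That median was 0.46 and 0.32 with a pseudocount of 1. With an FPKM minimum of 1 it was 0.48 in Ly6Chigh monocytes and stayed at 0.61 in Ly6Clow monocytes. The median log2 level of Ly6Clow over Ly6Chigh was -0.15 for synthetases and -0.25 from q2 alone. For the other genes it was -0.11, and 0.013 from q1 alone, which reverses the sign; the cause was not tested. No paired analysis was possible because no value per sample is given, and leaving out single samples could not be run for the same reason. Depth is unknown, so genes below 1 FPKM carry an unknown counting error.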
